A study of Brassica napus with 6 samples.

Results

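The interiors of chromosomes A05 and A09 of oilseed rape (Brassica napus) were examined in 6 cotyledon RNA libraries. The A05 interval runs from 13000000 to 25999999 and the A09 interval from 27000000 to 38999999, in the coordinates of the deposited files. The sources used here do not give their genome build. Members were genes that start in either interval and had at least 30 reads summed over the 6 libraries. This gave 802 genes on A05 and 563 on A09, 1365 in all, out of 2074 genes annotated in the intervals and 59978 genes with as many reads in the whole annotation of 100919 genes. Both intervals were chosen by the differences between libraries in their median CPM (counts per 1000000 counts in genes), so that variation is described here without a test.

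WT cotyledons and cotyledons of the bnsdp1 mutant line bnsdp1#CR88 were compared, with 3 libraries of each genotype. In germinating seeds the SDP1 lipase takes the first step in using up the oil reserve. All seedlings grew on 1/2MS medium with 1% sucrose, in the dark for 4 days and then for 6 h in normal conditions. The age of the seedlings beyond these days, the alleles of the line and the number of its parent plants do not appear in the labels, and the files pair no identifier with a gene name, so neither the lesion nor cotyledon marker genes could be checked. The labels do not say whether replicates came from separate seedlings, and the p-values given here reflect no more than how these libraries vary, which may be technical.

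Plant chromosomes are usually rich in genes along their arms, while the stretches around the centromere hold tandem repeats, transposable elements and, on some chromosomes, arrays of ribosomal RNA genes. Gene annotation of such stretches can include open reading frames that lie within repeats. Reads from near-identical copies can be shared among them or left out, depending on the counting, and oligo(dT) selection lowers but need not remove RNA without a poly(A) tail. The files do not say what any member encodes.

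Total counts were between 48288744 and 65550668 per library. The lowest chi-square per degree of freedom between libraries of a genotype was 7.30, so no pair agreed within sampling noise. Genes with a read numbered 66695, 66430 and 66828 in WT replicates 1, 2 and 3, and 65365, 65742 and 65966 in the mutant replicates. In these libraries of whole cotyledons, fewer cells with a transcript and less RNA per cell cannot be told apart.

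Members were weakly expressed. Their median level over the 6 libraries was 0.948 CPM on A05 and 0.942 CPM on A09, against 3.82 CPM for the 58613 genes with at least 30 reads outside the intervals. Divided by gene span, the medians were 0.863 and 0.785 CPM per kb, against 2.11 CPM per kb outside. Levels were also unusually even. The 90th percentile of CPM per kb was 5.67 times the 10th on A05 and 6.72 times on A09, whereas it was 96.3 times on the rest of A05, 86.2 times on the rest of A09 and 95.2 times over all genes outside. In gene-poor bins of the other chromosomes (384 bins of 1 Mb with at most 90 annotated genes), the median was 1.96 CPM per kb and the ratio was 93.2. Genes on unplaced sequences came nearer to the members, with a median of 0.322 CPM per kb and a ratio of 11.3. These level differences were not tested.

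The level of the members rose and dropped with the library. On A05 the median log2(CPM + 0.1) was 0.39, 0.000097 and -1.15 in WT replicates 1, 2 and 3, and 0.69, -0.30 and 0.03 in mutant replicates 1, 2 and 3. On A09 it was 0.39, -0.02 and -1.15 in the WT replicates and 0.63, -0.24 and -0.02 in the mutant replicates. WT replicate 3 was the lowest and mutant replicate 1 the highest library in both intervals, and the genotypes overlapped. Medians of both intervals differed by at most 0.063 in any library. From the lowest to the highest library the median spanned 1.84 on A05 and 1.78 on A09, against 0.24 over all genes outside, 0.20 on the rest of A05, 0.26 on the rest of A09 and 0.30 in gene-poor bins of the other chromosomes. Genes on unplaced sequences spanned 1.12. Without WT replicate 3 the range was 0.99 on A05 and 0.87 on A09.

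In summed reads WT replicate 3 was again lowest and mutant replicate 1 highest. Members on A05 held 0.121%, 0.0919% and 0.0462% of counts in the WT replicates and 0.144%, 0.0757% and 0.0969% in the mutant replicates. On A09 the shares were 0.0795%, 0.0598% and 0.0254% in WT and 0.0949%, 0.0477% and 0.0614% in the mutant. The 95% Wilson interval of each share was at most 0.00107 percentage points to either side, which covers counting error only. The highest share was 3.13 times the lowest on A05 and 3.73 times on A09, or 1.91 and 1.99 times without WT replicate 3. Over the genotypes the share on A05 was 0.0864% ± 0.0378 in WT, against 0.106% ± 0.0352 for mutant libraries (SD, n = 3). The difference was smaller than the spread between replicates. On A09 it was 0.0549% ± 0.0274 and 0.0680% ± 0.0243.

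Mutant replicate 1 and WT replicate 3, the highest and the lowest library here, had the fewest counts, at 48288744 and 51404121. The part of depth in the order was not tested. Another library value moved with it. Genes on unplaced sequences held 0.125%, 0.111% and 0.0898% of counts in WT replicates 1, 2 and 3, and 0.135%, 0.0996% and 0.109% in the mutant replicates, again with WT replicate 3 lowest and mutant replicate 1 highest. Their part in the result was not tested. The labels name no batch, so no value within batches could be had.

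**Figure D1:**
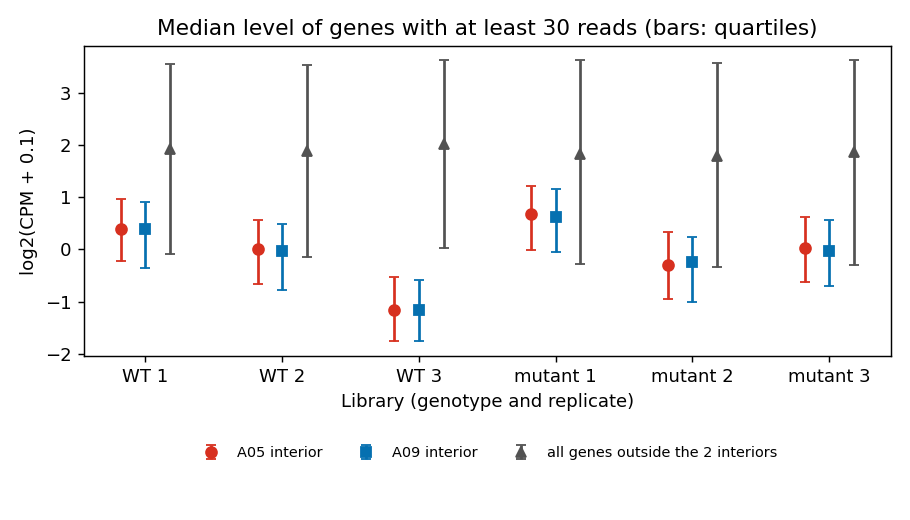
Level, as log2(CPM + 0.1), of genes with at least 30 reads in each of the 6 libraries, with points for the median and bars for the quartiles over genes. Both interiors move together, from -1.15 in WT replicate 3 to 0.69 (A05) and 0.63 (A09) in mutant replicate 1, while the median of genes outside stays between 1.79 and 2.03.

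Most members followed the order one by one. WT replicate 3 was the lowest of the 6 libraries for 1259 of 1365 members (92.2%), against 13.7% of genes outside. WT replicate 1 was the highest WT library for 1201 members (88.0%, against 26.2% outside) and mutant replicate 1 the highest mutant library for 1217 (89.2%, against 39.0%). To set this apart from a difference between genotypes, the log2 values of each gene were centred within each genotype and correlated over the 6 libraries with the median pattern of the interval on the other chromosome. A member was taken to follow the pattern at a Pearson correlation of at least 0.8. On A05 726 of 802 members (90.5%) did so, and on A09 511 of 563 (90.8%), against 5.72% of genes outside, 5.04% on the rest of A05 and 4.53% on the rest of A09. On unplaced sequences 50.4% of 1252 genes followed it. All genes here share the same 6 libraries and their depth, and the intervals were chosen for this variation, so these shares are a description.

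**Figure D2:**
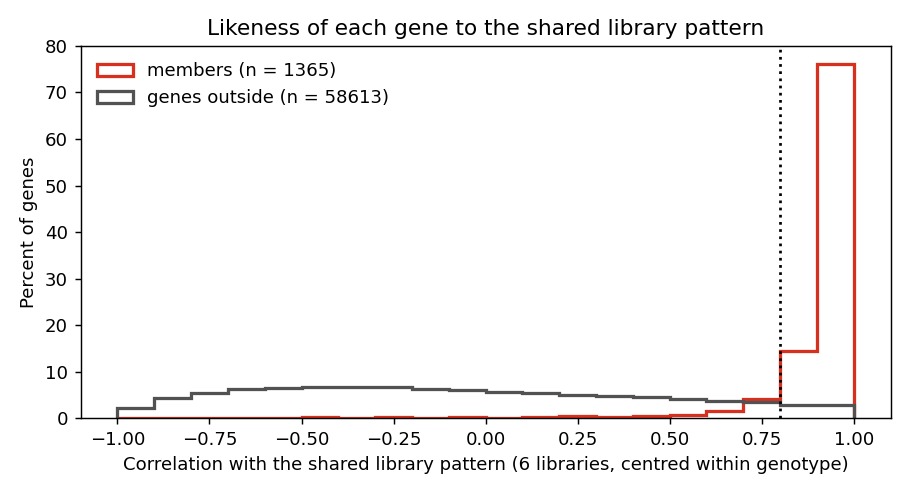
Percent of genes by their correlation with the shared library pattern, over 6 libraries centred within genotype, for the 1365 members and the 58613 genes outside. The dotted line marks 0.8, above which 90.6% of members and 5.72% of genes outside lie.

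Members with few reads followed less closely. The share was 67.4% for 132 members with under 100 reads, 91.1% for 526 with 100 to 299 reads and 94.6% for 707 with 300 reads or more. By span, 81.7% of 131 members under 500 bp and 91.5% of 47 members of 5000 bp or more followed. The slope of a member's centred values on the pattern, a measure of the size of its swing, had a median of 1.01 and quartiles of 0.78 and 1.18. Its median was 0.78 for members with under 100 reads and 1.05 for those with 300 reads or more.

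Both members with the most reads on A09 had long spans and followed the pattern. On A09 the minus-strand gene from 35010260 to 35051185, with a span of 40926 bp, had 20.5, 16.1 and 6.54 CPM in WT replicates 1, 2 and 3 and 24.8, 12.4 and 15.3 CPM in the mutant replicates. The genotypes overlapped, and its correlation with the pattern was 0.997. Its log2 fold change was 0.31 (SE 0.358, edgeR adjusted p = 0.501). The minus-strand gene from 29959413 to 29997010 (37598 bp) had 15.7, 11.8 and 5.80 CPM in WT and 18.6, 8.79 and 12.6 CPM in the mutant (correlation 0.994). Per length both were low, at 0.389 and 0.325 CPM per kb.

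Among members with a mean of at least 1 CPM, those closest to the pattern were spans of usual size. On A09 the minus-strand gene from 29617030 to 29617994 (965 bp) had 1.27, 1.02 and 0.603 CPM in the WT libraries and 1.45, 0.891 and 1.07 CPM in the mutant libraries. The minus-strand A09 gene from 29909569 to 29911161 (1593 bp) had 1.69, 1.21 and 0.428 CPM in WT and 1.95, 0.801 and 1.12 CPM in the mutant. WT replicate 3 was again lowest and mutant replicate 1 highest in both genes. On A05 the minus-strand gene from 20863081 to 20864290 (1210 bp) had 1.94, 1.19 and 0.331 CPM in WT and 2.24, 0.801 and 1.12 CPM in the mutant, and the plus-strand gene from 20998654 to 21000421 (1768 bp) had 2.50, 1.72 and 0.584 CPM in WT and 2.82, 1.24 and 1.62 CPM in the mutant. These 4 genes were picked for their correlations, which were all at least 0.999 and carry no test.

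Gene spans in the intervals recurred to the base pair. The median span of members was 1132 bp on A05 and 1134 bp on A09, against 1784 bp for genes outside, and the quartiles were 935 and 1229 bp on A05 and 935 and 1285 bp on A09. Of the 2074 annotated genes, 1119 had one of 24 exact spans that at least 10 of them shared, a grouping made after the spans had been seen. A span of 168 bp occurred 208 times, of 1211 bp 182 times, of 935 bp 176 times, of 210 bp 90 times, of 934 bp 50 times, of 1134 bp 46 times and of 1768 bp 45 times. Each of these occurred in both intervals, as with the 1211 bp span, which occurred 101 times on A05 and 81 times on A09. Both strands carried them, with 87 plus-strand and 95 minus-strand genes of 1211 bp. An equal span does not show an equal sequence, and no genome sequence of this build was used here.

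Recurring spans lay scattered through the intervals, and made up 54.3% of annotated genes on A05 and 53.5% on A09. Consecutive genes of 1211 bp started a median of 37635 bp apart on A05 and 53656 bp apart on A09, and never closer than 6758 bp. Both genes of a neighbouring pair had a recurring span in 34.5% of 1163 pairs on A05 and 34.3% of 909 pairs on A09. Neighbours lay on the same strand in 45.2% of pairs on A05 and 44.1% on A09, against 51.8% over the chromosomes outside the intervals. Only 1 pair of neighbours overlapped in the intervals, so reads of overlapping genes on opposite strands, which cannot be told apart without a stated strand setting, touch few members.

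Annotated genes were less dense in the intervals than on the rest of the same chromosomes, and unevenly spread. A05 had 89.5 annotated genes and 61.7 members per Mb, against 117 and 74.0 on the rest of A05. A09 had 75.8 and 46.9, against 117 and 75.4 on the rest of A09. Gene spans covered 10.6% of the A05 interval and 10.2% of the A09 interval. No member lay between 22 and 25 Mb on A05, where 21 genes were annotated, or between 32 and 33 Mb on A09, where 15 were.

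Long recurring spans were nearly all read, and short ones mostly not. Of the 737 interval genes with a recurring span of 900 bp or more, 736 had at least 30 reads, with a median of 0.998 CPM per kb. Of the 382 with a recurring span under 900 bp, 87 did, and of the 208 genes of 168 bp only 8. Members with any recurring span followed the library pattern in 761 of 823 cases (92.5%), and members with another span in 476 of 542 (87.8%). Within 1 span length the copies still differed in level, with quartiles of 0.69 and 1.35 CPM and a range of 0.14 to 3.35 CPM over the 182 members of 1211 bp. The 709 annotated genes that are no members included 446 with no read at all. Just under the minimum, 40 interval genes had 20 to 29 reads and a median correlation with the pattern of 0.55, and just above it 20 genes had 30 to 39 reads and a median of 0.76.

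Members with spans of 933 to 935 bp swung less than the other long recurring spans. They were set apart because in each of these spans WT replicate 1 was under 3 times WT replicate 3. Summed over the 243 members of 933, 934 and 935 bp, the level was 439, 385 and 185 CPM in WT replicates 1, 2 and 3, and 436, 280 and 382 CPM in the mutant replicates. Summed over the 493 members with other recurring spans of 900 bp or more, it was 696, 481 and 186 CPM in WT and 901, 402 and 508 CPM in the mutant. WT replicate 3 was lowest in both sets. WT replicate 1 was 2.37 times WT replicate 3 in the former and 3.74 times in the latter. Mutant replicate 1 was 0.994 times WT replicate 1 in the former and 1.30 times in the latter.

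Both interiors showed this difference between span classes. For the spans of 933 to 935 bp, WT replicate 1 was 2.373 times WT replicate 3 on A05 and 2.375 times on A09. For spans of 1210 and 1211 bp the ratios were 3.88 and 3.63. Each of the 13 other recurring spans of 900 bp or more with at least 10 members gave a ratio between 3.45 and 4.03, and the 3 spans of 933, 934 and 935 bp gave 2.77, 2.31 and 2.35. Mutant replicate 1 relative to mutant replicate 2, which did not define the classes, was between 1.56 and 1.57 times for the former spans and between 2.10 and 2.57 times for the latter. The classes were set after the ratios had been seen, and the difference was not tested.

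**Figure D3:**
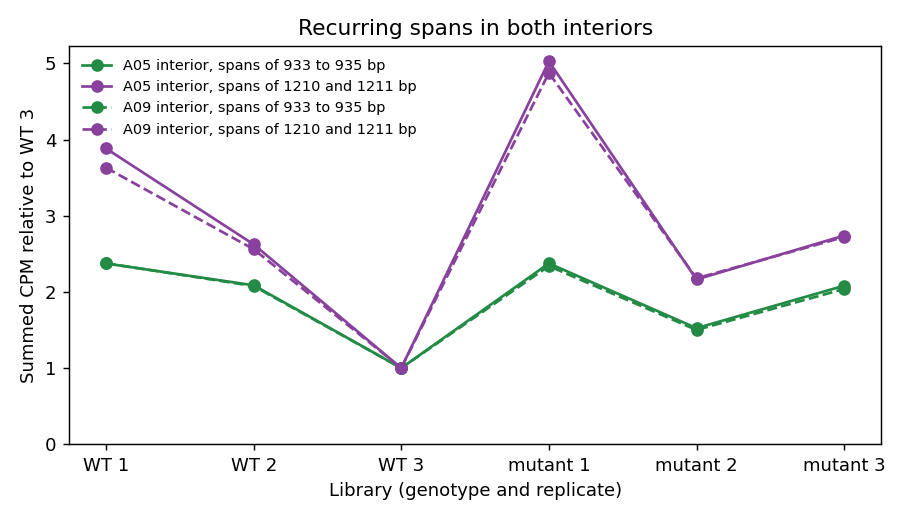
Summed CPM of members with spans of 933 to 935 bp and of 1210 and 1211 bp, in each of the 6 libraries relative to WT replicate 3, for A05 (solid) and A09 (dashed). The 933 to 935 bp spans reach 2.37 and 2.38 times in WT replicate 1, and the 1210 and 1211 bp spans 3.88 and 3.63 times. The 933 to 935 bp spans were set apart by this ratio over both interiors, so the gap between span classes there is no test.

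The same spans occurred outside the intervals, where they had no part in choosing the intervals. Of 629 genes elsewhere with a recurring span of 900 bp or more and at least 30 reads, 277 (44.0%) followed the library pattern, against 5.27% of 57796 genes elsewhere with other spans. The share varied among the 16 long spans. It was highest for 1211 bp with 67 of 101 genes (66.3%) and 935 bp with 63 of 101 (62.4%), while 1210 bp had 6 of 24, 933 bp had 5 of 31 (16.1%) and 1052 bp, the lowest, had 2 of 23 (8.70%). Of the 188 genes elsewhere with a recurring span under 900 bp, 32 followed (17.0%). The median of the 1211 bp genes elsewhere was 0.55, 0.37 and 0.16 CPM in WT replicates 1, 2 and 3, and 0.70, 0.35 and 0.37 CPM in the mutant replicates, with WT replicate 3 lowest and mutant replicate 1 highest again. By place, 129 of 188 such genes of 900 bp or more on unplaced sequences followed, 35 of 56 on A06 and 34 of 54 on A01. On the rest of A09 17 of 36 did, on the rest of A05 19 of 35 and on C08 15 of 27. Among genes of any span, 50.4% followed on unplaced sequences, 5.04% on the rest of A05 and 4.53% on the rest of A09. The 44.0% thus mixes span with place. On A03, A02 and A07 0 of 23, 0 of 20 and 0 of 14 did. A shared span thus went with the pattern on some chromosomes and not on others.

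Some other stretches held the same pattern. Of 858 bins of 1 Mb outside the intervals with at least 10 genes, 24 had at least 50% of genes following it. Unplaced sequences held 10 of these, A06 held 7, A01 held 3, and A05, A09, C03 and C08 held 1 each. On A05 and A09 these bins lay near the stated edges, from 28 to 29 Mb on A05 (13 of 13 genes) and from 26 to 27 Mb on A09 (8 of 10). The bins between 26 and 28 Mb on A05 held fewer genes, of which 7 of 8 and 6 of 7 followed. The bins between 22 and 26 Mb on A09 also held few, of which 5 of 6, 3 of 4, 5 of 8 and 4 of 6 followed. The last member on A09 starts at 38999860 and had 1.13, 0.824 and 0.253 CPM in WT and 1.53, 0.637 and 0.809 CPM in the mutant. The next gene, from 39005426, is no member and had 1.16, 0.732 and 0.447 CPM in WT and 1.28, 0.673 and 1.05 CPM in the mutant, so the pattern did not end at the stated edge.

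**Figure D4:**
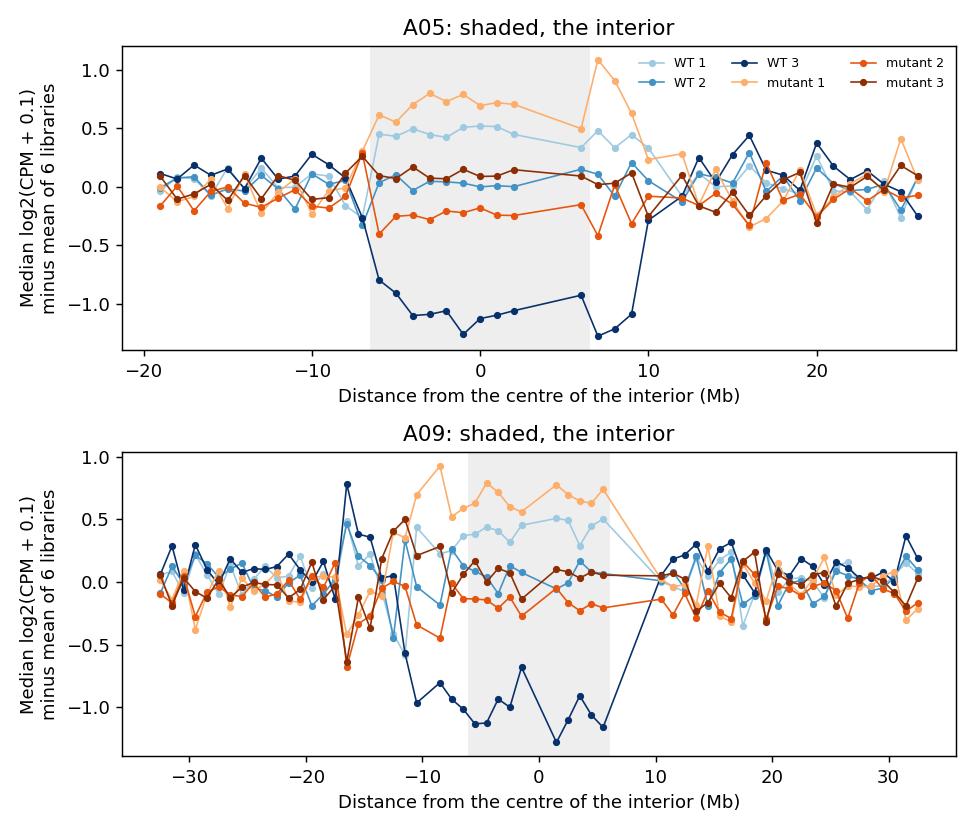
Median log2(CPM + 0.1) of genes with at least 30 reads in bins of 1 Mb, minus the mean of the 6 libraries, by distance from the centre of each interior, for bins with at least 5 such genes. Inside the shaded interiors WT replicate 3 is the lowest and mutant replicate 1 the highest library in every plotted bin, and a like separation appears in a few bins beyond the edges.

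The start of the A05 interval was the main exception. Among the 20 members that start between 13000000 and 13749999, 1 followed the pattern and 0 had a recurring span. Among the 33 from 13750000 to 13999999, 29 followed and 23 had a recurring span. Of the 20 members with a negative correlation, 13 lay in the first Mb of the A05 interval, none on the rest of it and 7 on A09, of which 3 lay close together between 36481261 and 36491731. One of the latter, on the minus strand from 36482243 to 36484055, had 0.951, 0.610 and 1.07 CPM in WT and 0.704, 0.801 and 1.14 CPM in the mutant.

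Both members with the most reads on A05 lay in this first stretch and did not swing. The minus-strand gene from 13327236 to 13328767 (1532 bp) had 38.8, 38.6 and 44.6 CPM in WT and 40.0, 37.2 and 42.2 CPM in the mutant. Its genotypes overlapped, with a log2 change of 0.01 (SE 0.0839, edgeR adjusted p = 0.933), and WT replicate 3 was its highest library. At 26.3 CPM per kb it stood far above the members' median. The other, BnaA05G0189900ZS, is described below. Over all 39 members with a mean of at least 3 CPM, 27 followed the pattern (69.2%).

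Few members were called between mutant and WT. Of 1311 members that passed the filter on low counts, 11 (0.839%) were called by edgeR at a false discovery rate (FDR) under 0.05, 5 higher and 6 lower in the mutant, whereas 51.7% of all 56385 genes tested were called, 25.5% higher and 26.2% lower. The other 54 members were not tested. Both intervals were chosen for differences between libraries, which can raise the error that this test uses, so the low share called is a description. An unadjusted p under 0.05 was found for 20 members. The median standard error of the log2 fold change was 0.46 among members against 0.16 among all genes tested, so changes of a given size were less likely to pass here, and a member that misses it is not shown to be alike in both genotypes. The median log2 fold change was 0.36 among tested members and 0.02 among all genes tested, and 1206 tested members had a positive value. Without WT replicate 3 the members' median was 0.02 and without mutant replicate 1 it was 0.04, so the median rests on these libraries, and without WT replicate 1 it was 0.73. Leaving out WT replicate 1 gave 37 called members and leaving out mutant replicate 2 gave 17. For the 933 to 935 bp spans the median log2 fold change was 0.14, and for the other recurring spans of 900 bp or more it was 0.44.

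Called members were bunched. The first Mb of the A05 interval held 10 of the 11, among 49 tested there (20.4%). Within that Mb, 3 of 5 members from 13000000 to 13249999 were called, 3 of 7 from 13250000 to 13499999 and 4 of 8 from 13500000 to 13749999. Of the 33 members from 13750000 to 13999999, 0 were called. The 20.4% thus mixes unlike stretches, and up to 13749999 the shares lay around the 51.7% called among all genes tested. Of the 10 called members in this first Mb, 9 did not follow the library pattern. In all, 9 of 101 tested members that did not follow the pattern were called (8.91%), and 2 of 1210 that did (0.165%). All 9 lay in the first Mb of the A05 interval. Among the 1262 other tested members of both intervals, 1 was called, on A09, and it followed the pattern. The contrast between followers and the others thus mixes pattern with place. Followers share a swing between replicates by definition, which can raise the error that the test uses. Their median standard error was 0.459, against 0.402 for the others, so these counts are a description.

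BnaA05G0189900ZS (A05, 13613079 to 13614616, minus strand) rose in the mutant. Its levels were 11.2, 10.5 and 11.8 CPM in WT replicates 1, 2 and 3 and 20.1, 18.7 and 18.1 CPM in the mutant replicates. All mutant values lay above the WT values, with means of 11.1 ± 0.637 CPM for WT and 19.0 ± 0.999 CPM for the mutant (SD, n = 3). On the log2 scale the change was 0.81 (SE 0.0841, edgeR adjusted p = 2.67e-05). BnaA05G0188300ZS (A05, 13413533 to 13416331, minus strand) rose from 1.07, 0.992 and 0.642 CPM in WT to 1.78, 1.60 and 1.71 CPM in the mutant, a log2 change of 0.94 (SE 0.252, edgeR adjusted p = 0.0102). The WT libraries of the latter were in the order of the shared pattern (correlation 0.928) with a slope of 0.37.

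BnaA05G0186800ZS (A05, 13221928 to 13222857, plus strand) fell in the mutant. It had 1.51, 1.88 and 1.61 CPM in the WT libraries and 0.249, 0.418 and 0.442 CPM in the mutant libraries, from 12 to 24 reads each. All mutant values lay below the WT values, a log2 change of -2.12 (SE 0.298, edgeR adjusted p = 0.000208). BnaA05G0190900ZS (A05, 13737130 to 13739033, minus strand) fell from 8.98, 8.73 and 10.4 CPM to 4.80, 4.08 and 4.08 CPM, a log2 change of -1.07 (SE 0.112, edgeR adjusted p = 2.78e-05). The files pair none of these 4 identifiers with a name.

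The remaining 7 called members are given by position. On A05, 2 members with a mean under 1 CPM had larger fitted falls than those named, on few mutant reads. At 13271880 to 13273578 the level fell from 1.16 ± 0.330 to 0.181 ± 0.0697 CPM (SD, n = 3), with 12, 6 and 10 mutant reads. Its log2 fold change was -2.65 (SE 0.398, edgeR adjusted p = 0.000316). At 13536697 to 13539329 the level fell from 0.845 ± 0.0770 to 0.126 ± 0.117 CPM (SD, n = 3), with 4, 2 and 14 mutant reads. Its log2 fold change was -2.68 (SE 0.537, edgeR adjusted p = 0.00198). The other 4 on A05 had log2 fold changes of 0.66, -1.14, 0.36 and -0.55. The single called member on A09, chosen for mention after its values were seen, spans 204 bp from 34741339 to 34741542. Its counts were 25, 16 and 4 reads in WT and 34, 25 and 47 reads in the mutant (log2 fold change 1.42, SE 0.526, edgeR adjusted p = 0.0443). Its call was lost without any single library other than WT replicate 1, with adjusted p of 0.0509 to 0.140.

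**Figure D5:**
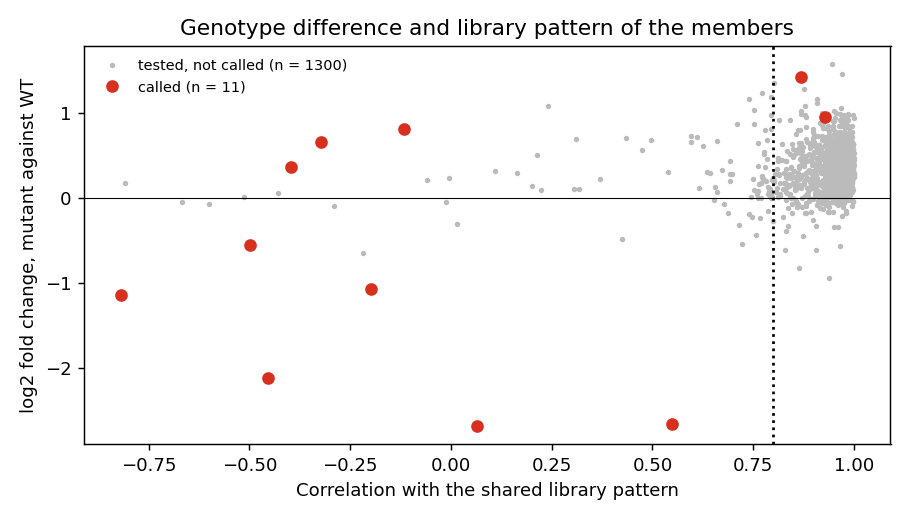
Fitted log2 fold change of mutant against WT for the 1311 tested members, by their correlation with the shared library pattern. Red points are the 11 called members, 9 of which lie left of the dotted line at 0.8, while the dense group of followers centres above 0.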

How the data were processed

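RNA was measured by poly(A) sequencing in 3 WT and 3 mutant libraries, grouped by their genotype label. Counts are the authors' raw reads per gene, per the file headers, and were deposited without normalization. The submitters' processing notes name fastp, HISAT2 and featureCounts. Their settings, including strandedness and the handling of multi-mapped reads, do not appear in the labels. In 100% of genes the stated length equalled the whole span, so counts may include introns.

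CPM was each count times 1000000 over its library total. Descriptions used log2(CPM + 0.1), which understates swings of low genes. Genes of all 6 libraries were tested with edgeR 4.0.16 in R 4.3.3 (filterByExpr, TMM, quasi-likelihood F test, no covariate, robust off), Benjamini-Hochberg adjusted over 56385 genes; the fit was tested on simulated counts. DESeq2 1.42.0 and limma 3.58.1 voom served as alternatives. A table of 123214 named genes of another assembly (Da-Ae) matched 0 identifiers, so at most 2 genes that rose and 2 that fell are named: called, mean of at least 1 CPM, genotypes apart, largest change. By position, each interval gives the 2 members with the most reads and the 2 closest to the pattern with at least 1 CPM. Members, intervals and rules were chosen with earlier results of these data known.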

Additional observations from a re-analysis of the deposited data

How the results depend on the processing

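The count of 11 called members was 10 to 16 under RLE or library size scaling, no filter or at least 30 reads, DESeq2, limma voom, robust dispersion, and without WT replicate 2 or 3 or mutant replicate 1 or 3. It was 37 without WT replicate 1 (31 higher) and 17 without mutant replicate 2 (11 higher), so leaving out single libraries gave 10 to 37. The cause was not tested. The replicate block gave 24 called members, 18 higher and 6 lower, and kept 10 of the 11. The deviations of libraries with equal numbers correlated at 0.20, -0.06 and 0.06. The first was the highest value for any WT and mutant library, before 0.17 for WT replicate 3 and mutant replicate 2. The labels state no pairing, and these values cannot decide whether the numbers pair the libraries. With the members' median level per library as a covariate, chosen after seeing the data, 13 members were called and the median log2 fold change was 0.05. At least 30 reads in place of the filter gave 10 higher and 6 lower, against 5 and 6. In all 16 settings the 4 genes given by identifier stayed called in the same direction, with adjusted p of at most 0.0309. The A05 member from 13480352 to 13482257 lost its call without WT replicate 1 or 2 or mutant replicate 2 or 3 (edgeR adjusted p of 0.0519 to 0.0665).

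The library range of 1.84 on A05 and 1.78 on A09 was 0.896 and 0.859 with 1 CPM added, which by construction compresses levels near 1 CPM. Leaving out single libraries gave 0.99 to 1.84 on A05 and 0.87 to 1.78 on A09, lowest without WT replicate 3. The count of 1237 members that followed the pattern was 1040 to 1292 in all settings run, 1062 of them without WT replicate 3 (77.8%, against 15.0% outside). At about 1 CPM the depth limits what can be said of single short members.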
